A study of Mus musculus with 20 samples.

Results

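The genes described here are 48 members of the Wnt signalling system measured in mouse tibia. They were taken by symbol from the table of expected counts, whose 54446 gene rows carry Ensembl identifiers, and all 48 symbols matched a row. They comprise 17 Wnt ligands, 10 frizzled receptors, 3 LRP co-receptors (Lrp4, Lrp5 and Lrp6), 5 secreted inhibitors (Dkk1, Dkk2, Dkk3, Wif1 and Notum), 6 R-spondins and Lgr receptors, 2 genes for ligand secretion (Wls and Porcn), and 5 genes known as targets of the pathway (Axin2, Lef1, Tcf7, Nkd1 and Nkd2). The secreted frizzled-related genes were not included.

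Wnt ligands are lipid-modified secreted proteins that bind a frizzled receptor together with an LRP co-receptor. In the canonical branch this keeps β-catenin from being degraded, so that it can act with transcription factors of the TCF/LEF family. Dkk1 and sclerostin block the LRP co-receptors, Wif1 binds the ligands themselves, and R-spondins acting through Lgr receptors keep frizzled and LRP proteins at the cell surface. In bone the pathway is best known for driving bone formation by osteoblasts, and mechanical load and glucocorticoids are both known to act on it.

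The libraries came from the tibiae of 3-month-old male C57BL/6J mice, a wild-type strain. Mice received subcutaneous injections for 5 days of either water (Vehicle) or dexamethasone (DEX), a synthetic glucocorticoid, at 1 mg/kg. The left tibia was loaded axially on days 1 and 3 by the sample labels, with 40 cycles per session at -13 N, and the right tibia of the same mice was left unloaded. The study's text describes more sessions and a later last one than the labels do, so that the time between the last loading and the taking of tissue is not settled here. The 4 groups are therefore Vehicle_Ctrl (vehicle, unloaded), Vehicle_Load (vehicle, loaded), DEX_Ctrl (DEX, unloaded) and DEX_Load (DEX, loaded), with 5 libraries each. The study removed a DEX sample numbered 4 without naming the limb, and DEX_Ctrl replicate 4 was left out here, so that n = 4 in that group. Because whole frozen tibiae were pulverised, a library holds RNA of bone, marrow, cartilage and adhering tissue, and fewer cells of a type cannot be told apart from less RNA per cell.

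Values are given per library in CPM (counts scaled to the library's depth, after TMM normalization), in the order of replicates 1, 2, 4, 5 and the unnumbered library in both vehicle groups, 1, 2, 3 and 5 in DEX_Ctrl, and 1 to 5 in DEX_Load. Library totals ran from 4641440 to 13032000 counts. Reads on olfactory and vomeronasal receptor genes, which bone is not known to use, summed to 391 to 1364 CPM in Vehicle_Ctrl, 261 to 932 in Vehicle_Load, 800.4 to 2918 in DEX_Ctrl and 1097 to 6494 in DEX_Load. This background was thus higher in every DEX_Load library than in any Vehicle_Load library, and its highest value was in DEX_Load replicate 4, the shallowest library. The summed osteoblast markers lay at 42210.1 to 63847 CPM in Vehicle_Load against 3109.6 to 15161 in DEX_Load, and all 6 of them were lower with DEX in loaded tibiae. Chondrocyte, periosteum and tendon, and B cell markers were also lower in DEX_Load than in Vehicle_Load, with 5 of 6, 4 of 5 and 4 of 5 genes called, whereas all 5 neutrophil markers were higher. The osteocyte markers summed to 1474 to 2509 CPM in Vehicle_Load and 669 to 1390 in DEX_Load without overlap, with 3 of 5 lower and 1 higher. In unloaded tibiae 4 of 6 osteoblast (29520 to 97912 CPM in Vehicle_Ctrl, 3861 to 23696 in DEX_Ctrl), 3 of 5 periosteum and tendon, 3 of 5 B cell and 2 of 4 osteocyte markers (1786 to 2547 and 1002 to 1662 CPM) were lower with DEX, and 4 of 5 neutrophil markers were higher. Skeletal muscle markers summed to 7883 to 34803 CPM in Vehicle_Ctrl and 2301 to 16448 in DEX_Ctrl, with 0 of 6 called. In loaded tibiae they summed to 3751 to 18343 CPM with vehicle and 7160 to 20785 with DEX, with 1 of 6 higher. Of 4 endothelial markers, 1 was lower with DEX in both limbs. No marker of any list was at 0 in every library. How much of any member's difference these shifts make up was not tested.

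**Figure D1:**
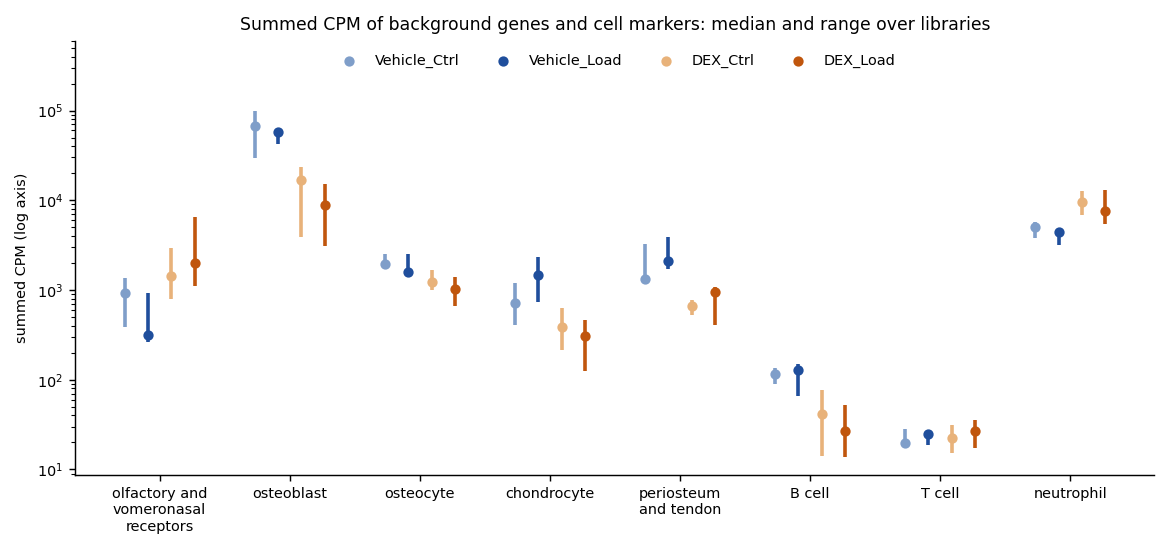
Summed CPM (log axis) of olfactory and vomeronasal receptor genes, taken as background, and of the markers of 7 cell types in the 4 groups; points are medians and lines run from the lowest to the highest library. Osteoblast and B cell sums do not overlap between Vehicle_Load and DEX_Load, background does not overlap either and is higher in DEX_Load, and T cell sums overlap in all groups.

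To compare levels between genes, counts were divided by exon length and scaled to the library (TPM). In Vehicle_Ctrl the highest median TPM among the members was that of Wif1, an inhibitor that binds Wnt ligands, at 103, followed by the co-receptor Lrp4 at 42.6 and the inhibitor Dkk1 at 37.3. Among the ligands, Wnt5b at 23.4 TPM and Wnt10b at 16.7 TPM stood above Wnt1 at 7.08 and Wnt16 at 5.83. Fzd7 at 17.8, Fzd4 at 16.4, Fzd1 at 14.7 and Fzd5 at 14.6 TPM were the leading frizzled receptors and were close to each other. At the low end were Wnt3 at 0.288 and Wnt2 at 0.261 TPM.

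**Figure D2:**
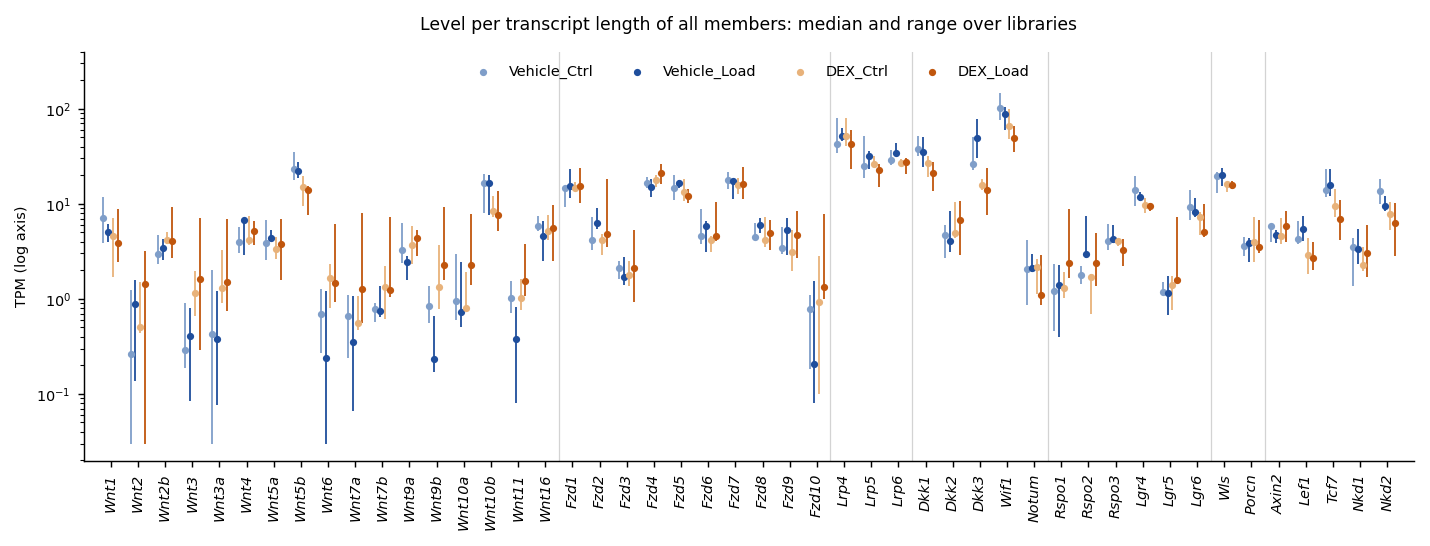
TPM (log axis) of all 48 members in the 4 groups, ordered by role; points are medians, lines run from the lowest to the highest library, and values below 0.03 are drawn at 0.03. Wif1 is the highest member in Vehicle_Ctrl with a median of 103 TPM, and low ligands such as Wnt2, Wnt3, Wnt3a, Wnt6, Wnt7a, Wnt9b and Wnt10a lie below 1 TPM at the median of both vehicle groups.

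By the rule of a median under 10 counts in each of the 4 groups, 1 member was too low to judge. This was Wnt2, with 0 to 1.15 CPM in Vehicle_Ctrl and 0 to 2.55 CPM in DEX_Load. The ligands Wnt3, Wnt3a and Wnt6 failed, like Wnt2, the filter on low counts in loading under vehicle and in both DEX comparisons. Wnt7a, Wnt10a and Rspo1 failed it in loading under vehicle and in DEX against vehicle without loading, and Fzd10 failed it in the former. These 8 members passed the filter for loading in DEX and for the interaction, and Wnt7a, Wnt10a, Rspo1 and Fzd10 also for DEX in loaded tibiae, through DEX libraries in which their counts and the background were higher. Wnt9b and Wnt11 were in the same position for DEX in loaded tibiae. In all, 5 of the 44 members tested there (Wnt7a, Wnt9b, Wnt10a, Wnt11 and Fzd10) had a median under 10 counts in Vehicle_Load and entered the test through DEX_Load, and none had one in DEX_Load.

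With DEX, the inhibitors Dkk3, Dkk1 and Wif1, the ligand Wnt5b and the target genes Tcf7, Lef1 and Nkd2 were among the members that fell. In loaded tibiae 15 of the 44 members tested passed the test, 13 lower and 2 higher (Wnt9b and Wnt11, which were tested only because their counts were high in DEX_Load), beside a background over all 19780 genes of 21.3% called, 8.35% lower and 12.9% higher. In unloaded tibiae 8 of 41 members passed, all of them lower and beside the marker shifts given above, with 6.84% of all genes called, 3.99% lower and 2.86% higher. In loaded tibiae the groups did not overlap for 10 members lower and 2 higher, beside 8.85% and 7.66% of all genes. In unloaded tibiae this held for 7 members lower and 0 higher, beside 6.4% and 4.45% of all genes. The median log2 fold change of the members tested was -0.25 in loaded and -0.31 in unloaded tibiae, while that of all genes was 0.0040 and 0.033. The 8 members that fell in unloaded tibiae were all among the 13 that fell in loaded tibiae, 100% of the former list and 61.5% of the latter. The like overlap over all genes was not computed, so that these shares have no background to be read against. The limbs are those of the same mice, so that the 2 comparisons are not independent.

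**Figure D3:**
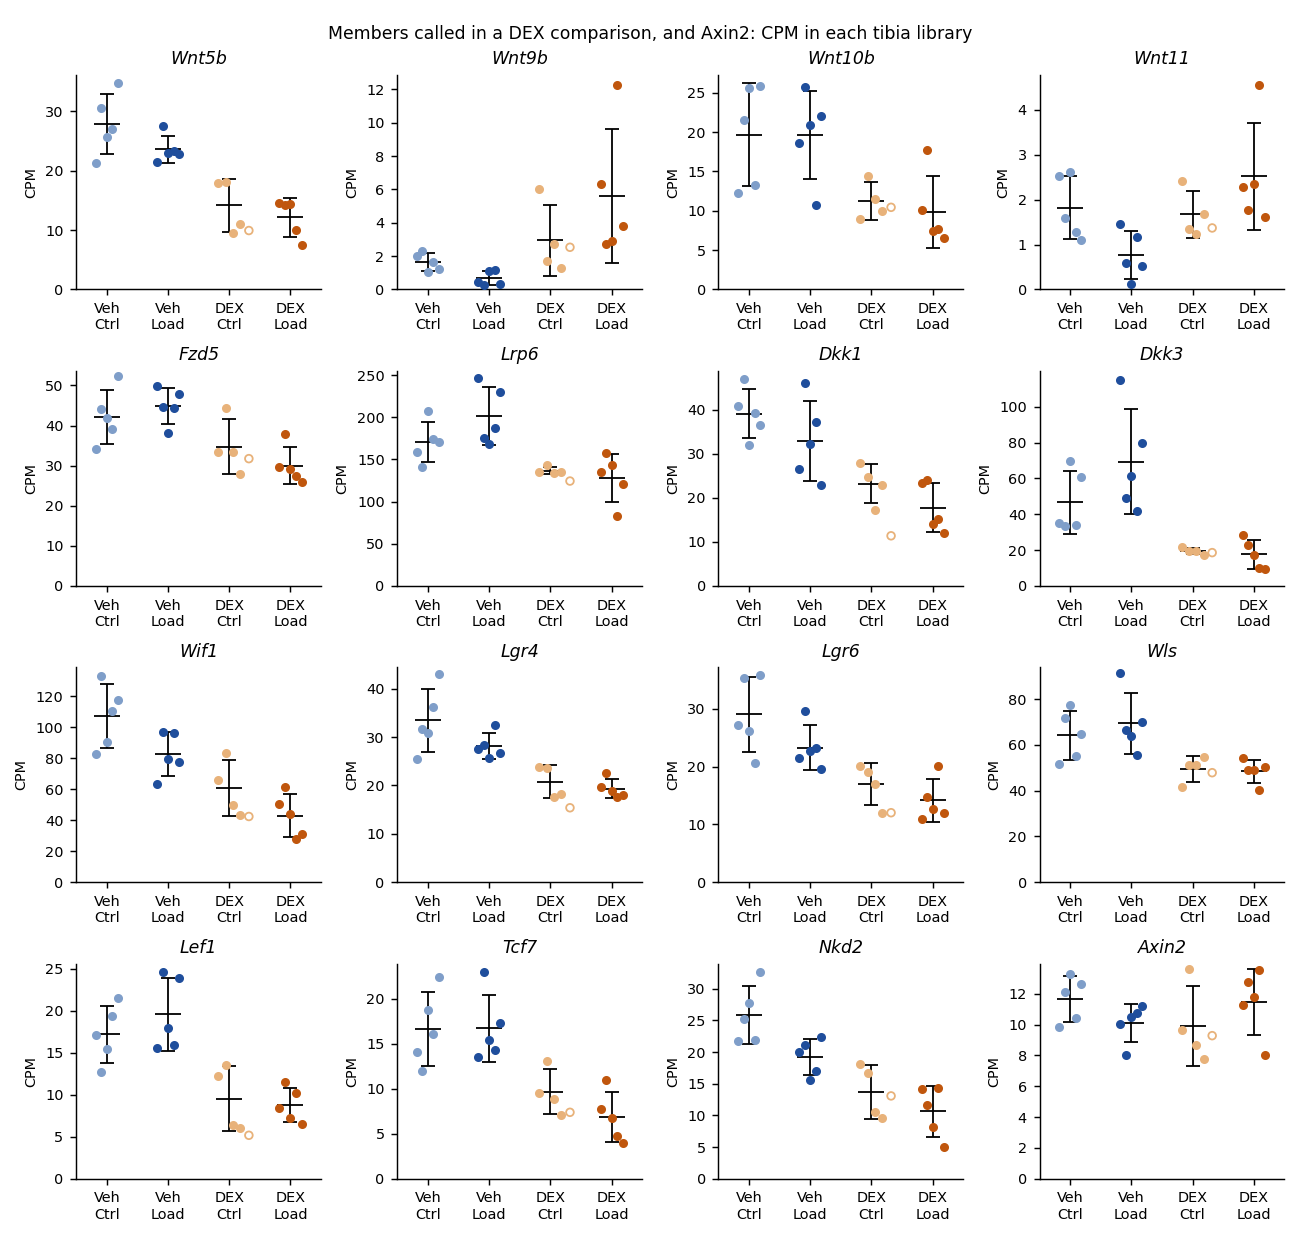
CPM of the 15 members called in a DEX comparison and of Axin2 in every library of the 4 groups; filled points are libraries, bars are mean ± SD, and the open point is DEX_Ctrl replicate 4, which was left out. Dkk3 lies at 41.9 to 115 CPM in Vehicle_Load and 9.53 to 28.2 in DEX_Load without overlap, whereas Axin2 overlaps in all 4 groups.

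Among the secreted inhibitors, 3 of 5 fell in both limbs. Dkk3 (ENSMUSG00000030772.6, chr7:112116017-112159057 in GRCm38), a divergent dickkopf protein, measured 115, 48.8, 61.2, 41.9 and 79.9 CPM in Vehicle_Load and 28.2, 22.6, 17.3, 10.1 and 9.53 CPM in DEX_Load. Every DEX_Load library lay under every Vehicle_Load library, and the log2 fold change was -1.94 ± 0.32 (SE, adjusted p = 0.00307), which had the lowest p of the 44 members. Without loading Dkk3 measured 34.9, 33.5, 70.0, 34 and 60.6 CPM in Vehicle_Ctrl and 21.7, 19.4, 19.4 and 17.4 in DEX_Ctrl, again without overlap, with a log2 fold change of -1.24 ± 0.23 (adjusted p = 0.0129).

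Dkk1 (ENSMUSG00000024868.8, chr19:30545863-30549665), which blocks the LRP co-receptors, measured 26.6, 46.1, 32.2, 37.2 and 23 CPM in Vehicle_Load and 23.5, 24, 14.1, 15.1 and 12.1 CPM in DEX_Load. The 2 highest DEX libraries reached just above the lowest vehicle library, and the log2 fold change was -0.85 ± 0.23 (adjusted p = 0.0217). In unloaded tibiae the groups did not overlap, at 40.8, 47.1, 31.9, 39.4 and 36.5 CPM with vehicle and 28, 24.8, 17.3 and 22.9 CPM with DEX, for a log2 fold change of -0.74 ± 0.16 (adjusted p = 0.022).

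Wif1 (ENSMUSG00000020218.11, chr10:121033960-121100650) measured 63.4, 96.8, 79.3, 96.6 and 78 CPM in Vehicle_Load and 50.7, 61.4, 43.9, 27.7 and 31.2 CPM in DEX_Load, a log2 fold change of -0.91 ± 0.20 (adjusted p = 0.0121) with no overlap. It ranged from 82.6 to 134 CPM in Vehicle_Ctrl and from 43.5 to 83.7 CPM in DEX_Ctrl, where the groups just overlapped, with a log2 fold change of -0.81 ± 0.20 (adjusted p = 0.0342). The other inhibitors did not pass. Dkk2 had a log2 fold change of 0.37 ± 0.34 in loaded tibiae (adjusted p = 0.449), and Notum, an enzyme that strips the lipid from Wnt ligands, -0.79 ± 0.40 (adjusted p = 0.169) at 1.75 to 3.10 CPM in Vehicle_Load and 0.758 to 2.05 in DEX_Load.

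Of the 5 target genes, Tcf7, Lef1 and Nkd2 fell with DEX in loaded tibiae, and Tcf7 and Nkd2 also in unloaded tibiae. Tcf7 (ENSMUSG00000000782.15, chr11:52252371-52283014), which encodes the factor TCF1, measured 13.6, 23, 15.4, 14.4 and 17.3 CPM in Vehicle_Load and 7.78, 11, 6.73, 4.72 and 4.01 CPM in DEX_Load, a log2 fold change of -1.24 ± 0.25 (adjusted p = 0.00762) without overlap. In unloaded tibiae it measured 14.1, 12, 18.7, 16.1 and 22.4 CPM with vehicle and 9.53, 13.1, 8.89 and 7.12 CPM with DEX. These overlapped at 1 library, and the log2 fold change was -0.78 ± 0.21 (adjusted p = 0.0474).

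Lef1 (ENSMUSG00000027985.14, chr3:131110471-131224356), another factor of the TCF/LEF family, measured 15.6, 24.6, 17.9, 15.9 and 23.9 CPM in Vehicle_Load and 8.45, 11.5, 7.27, 10.2 and 6.50 CPM in DEX_Load, with a log2 fold change of -1.11 ± 0.19 (adjusted p = 0.00367) and no overlap. Without loading, 17.1, 12.7, 15.4, 19.3 and 21.5 CPM stood against 12.2, 13.5, 6.42 and 5.99 CPM, and DEX_Ctrl held 2 libraries near the vehicle values and 2 well under them. The log2 fold change there was -0.85 ± 0.25, which missed the threshold (adjusted p = 0.0609) in edgeR, but DESeq2 called it, as did the fits with no filter and with no library left out. Lef1 and Tcf7 are also genes of developing lymphocytes. Beside their fall, the 5 B cell markers summed to 65.1 to 148 CPM in Vehicle_Load and 13.7 to 52.3 in DEX_Load, and the 6 T cell markers to 18.6 to 26.6 and 17.6 to 35.3 CPM with 0 of 6 called. The part of the B cell shift in these falls was not tested.

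Nkd2, a feedback inhibitor that binds dishevelled, ranged from 15.6 to 22.4 CPM in Vehicle_Load and from 4.98 to 14.3 in DEX_Load, with a log2 fold change of -0.82 ± 0.24 (adjusted p = 0.0313). In unloaded tibiae the fall was -0.91 ± 0.20 on the log2 scale (adjusted p = 0.0223), and in both limbs the groups did not overlap. Its relative Nkd1 did not pass, with -0.28 in loaded and -0.53 in unloaded tibiae, at 4.4 to 10.7 CPM in Vehicle_Load and 2.82 to 8.03 in DEX_Load. Axin2, the feedback gene most often read as a measure of canonical signalling, measured 10.0, 8.01, 10.5, 10.7 and 11.2 CPM in Vehicle_Load and 11.3, 12.7, 11.8, 13.5 and 8.02 CPM in DEX_Load. It did not pass in loaded tibiae (0.22 ± 0.17, adjusted p = 0.353) or in unloaded tibiae (-0.22 ± 0.18, adjusted p = 0.473), and the signs of these small differences were opposite.

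**Figure D4:**
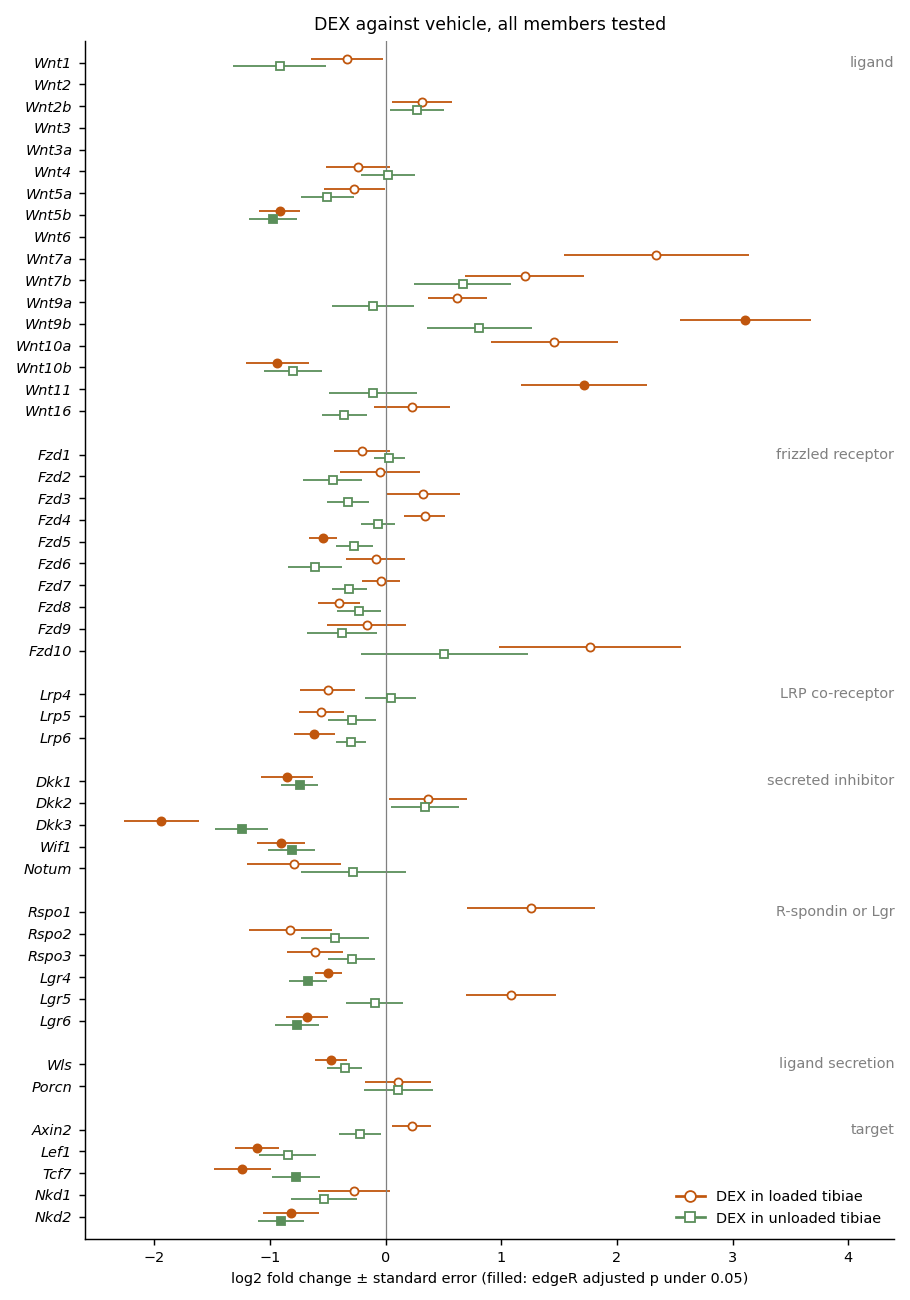
Log2 fold change ± SE of DEX against vehicle for every member tested, in loaded tibiae (circles) and unloaded tibiae (squares), ordered by role; filled symbols have an edgeR adjusted p under 0.05. The filled symbols on the left side are the 13 members that fell in loaded tibiae and the 8 that fell in unloaded tibiae, and those on the right are Wnt9b (3.11) and Wnt11 (1.72).

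Of the 13 ligands tested in loaded tibiae, Wnt5b and Wnt10b fell. Wnt9b and Wnt11 passed as higher, but they reached the test through DEX_Load alone, so that their values are given as a description. Wnt5b (ENSMUSG00000030170.14, chr6:119432531-119544347), mostly a ligand of the branches that do not use β-catenin and prominent in growth plate cartilage, measured 21.4, 27.4, 22.9, 23.3 and 22.8 CPM in Vehicle_Load and 14.5, 14.2, 14.4, 9.92 and 7.48 CPM in DEX_Load. The log2 fold change was -0.92 ± 0.18 (adjusted p = 0.0064). In unloaded tibiae, 21.3, 30.5, 25.7, 27 and 34.8 CPM with vehicle stood against 17.9, 18.1, 9.51 and 11.1 CPM with DEX, a log2 fold change of -0.97 ± 0.21 (adjusted p = 0.021). All DEX values lay under all vehicle values in both limbs. The 6 chondrocyte markers summed to 737 to 2319 CPM in Vehicle_Load against 124 to 467 in DEX_Load, but to 411 to 1186 in Vehicle_Ctrl against 216 to 624 in DEX_Ctrl, where none of the 5 tested was called although the median sum was lower with DEX (713 and 384 CPM). The part of chondrocytes in the fall of Wnt5b was not tested.

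Wnt10b (chr15:98770712-98778150), a ligand known to favour osteoblasts over adipocytes, measured 18.6, 25.7, 20.9, 10.7 and 22.1 CPM in Vehicle_Load and 10.1, 17.7, 7.48, 7.72 and 6.50 CPM in DEX_Load, which overlapped. Its log2 fold change was -0.94 ± 0.27 (adjusted p = 0.0308) in loaded and -0.80 ± 0.25 (adjusted p = 0.076) in unloaded tibiae, where it did not pass in edgeR but was called by DESeq2, with no filter and with no library left out. Its call in loaded tibiae was lost without DEX_Load replicate 1, 3, 4 or 5, Vehicle_Load replicate 2 or the unnumbered Vehicle_Load library.

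Wnt9b (chr11:103727364-103749821) measured 0.456, 0.293, 1.13, 1.16 and 0.345 CPM in Vehicle_Load and 6.31, 2.74, 2.89, 12.3 and 3.79 CPM in DEX_Load, a log2 fold change of 3.11 ± 0.57 (adjusted p = 0.0047) and 2.60 without DEX_Load replicate 4, its highest library. Wnt11, at 0.125 to 1.46 CPM and 1.63 to 4.57 CPM, had 1.72 ± 0.55 (adjusted p = 0.0416), and without that library 1.38 (adjusted p = 0.0880). Both genes are among the 6594 genes of lowest expression of the 19780 tested, where 1913 of 6594 genes rose and 53 fell in DEX_Load. The highest values of both genes were in DEX_Load replicate 4, the library with the most background. With background reads as a covariate, the log2 fold change was 0.90 ± 0.43 for Wnt9b (adjusted p = 0.423) and 0.81 ± 0.79 for Wnt11 (adjusted p = 0.750), and neither passed. That fit left 0 of 44 members called, so that the 13 members that fell lost their calls as well. Background did not overlap between the loaded groups, so that this fit cannot tell background from DEX for rises or falls.

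The ligands that did not pass in loaded tibiae spanned log2 fold changes from -0.33 (Wnt1) to 2.34 (Wnt7a). Wnt7a, Wnt10a and Wnt7b, each at most 2.50 CPM in any Vehicle_Load library, were highest in DEX_Load replicate 4, at 7.40, 5.67 and 10.4 CPM. With background reads as a covariate their log2 fold changes were negative, at -0.91, -0.42 and -0.68. Wnt16, a ligand that protects cortical bone, had 0.23 ± 0.33 (adjusted p = 0.632), Wnt4 -0.24 ± 0.28 (adjusted p = 0.548) and Wnt5a -0.27 ± 0.26 (adjusted p = 0.473), and the groups overlapped for each. Wnt4 ranged from 4.51 to 12.7 CPM in Vehicle_Load and 4.57 to 10.7 in DEX_Load, Wnt5a from 12.8 to 15.6 and 4.55 to 15.7, and Wnt1 from 3.5 to 5.69 and 2.14 to 6.14.

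Among the receptors, Fzd5 and Lrp6 fell in loaded tibiae, and neither the 10 frizzled genes nor the 3 co-receptors had a member that passed in unloaded tibiae. Fzd5 (chr1:64730558-64737751) measured 49.8, 44.6, 38, 44.4 and 47.8 CPM in Vehicle_Load and 29.7, 37.8, 29.1, 27.4 and 26 CPM in DEX_Load, with a log2 fold change of -0.54 ± 0.12 (adjusted p = 0.0128) against -0.27 ± 0.16 (adjusted p = 0.312) in unloaded tibiae. Lrp6 (chr6:134446476-134566965), the co-receptor that carries the canonical signal together with Lrp5, measured 247, 176, 168, 187 and 229.7 CPM in Vehicle_Load and 135, 158, 144, 82.8 and 120.4 CPM in DEX_Load, a log2 fold change of -0.62 ± 0.18 (adjusted p = 0.0286). The groups did not overlap for either gene.

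Lrp5, at 94.3 to 136 CPM in Vehicle_Load and 42.7 to 99.5 in DEX_Load, had -0.55 ± 0.19 in loaded tibiae and just missed the threshold (adjusted p = 0.0547), although DESeq2 called it. Lrp4, which anchors sclerostin, ranged from 202 to 249 CPM in Vehicle_Load and from 71.2 to 244 in DEX_Load, with -0.50 ± 0.24 (adjusted p = 0.147). Fzd8 (-0.40 ± 0.18), Fzd1 (-0.20 ± 0.24) and Fzd9 (-0.16 ± 0.34) did not pass in loaded tibiae, at 12.2 to 18.5, 19.9 to 39.7 and 2.50 to 7.02 CPM in Vehicle_Load and 7.26 to 14.1, 15.6 to 35.4 and 2.35 to 5.67 in DEX_Load. Fzd8 and Lrp5 were called lower in loaded tibiae once the filter on low counts was dropped. The single model of the 4 groups called both of them lower as well. In unloaded tibiae Fzd6 was the frizzled gene of lowest p, with a log2 fold change of -0.61 ± 0.23 (adjusted p = 0.132) and groups that did not overlap.

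Lgr4 and Lgr6, receptors of R-spondins, fell in both limbs. Lgr4 (chr2:109917647-110014257) measured 27.4, 28.3, 25.7, 32.6 and 26.6 CPM in Vehicle_Load and 19.7, 22.5, 18.8, 17.6 and 18.1 CPM in DEX_Load, a log2 fold change of -0.50 ± 0.12 (adjusted p = 0.0147). In unloaded tibiae it measured 25.5, 31.7, 30.9, 36.2 and 43 CPM with vehicle and 23.8, 23.7, 17.5 and 18.3 CPM with DEX, for -0.67 ± 0.16 (adjusted p = 0.0318), and in both limbs the groups were apart. Lgr6, known as a marker of osteogenic progenitors, ranged from 19.5 to 29.6 CPM in Vehicle_Load and 11 to 20.2 in DEX_Load, and from 20.6 to 35.9 in Vehicle_Ctrl and 11.9 to 20.1 in DEX_Ctrl. It had -0.68 ± 0.18 (adjusted p = 0.0214) in loaded and -0.77 ± 0.19 (adjusted p = 0.0364) in unloaded tibiae. Lgr5 did not pass in loaded tibiae (1.08 ± 0.39, adjusted p = 0.0628) and had -0.38 with background reads as a covariate. None of Rspo1, Rspo2 and Rspo3 passed in loaded tibiae. Rspo2 and Rspo3 did not pass in unloaded tibiae, where Rspo1 was not tested. In loaded tibiae all 6 R-spondin and Lgr members, 4 lower and 2 higher, had an unadjusted p under 0.05, beside 37.2% of all genes. Rspo2 and Rspo3 were called lower there once the filter on low counts was dropped. The single model of the 4 groups called both of them lower as well.

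Wls (chr3:159839672-159938664), the carrier that brings Wnt ligands to the cell surface, measured 91.3, 66.3, 64.1, 55.7 and 70.0 CPM in Vehicle_Load and 54.1, 49, 48.8, 40.5 and 50.5 CPM in DEX_Load. These did not overlap, and the log2 fold change was -0.47 ± 0.14 (adjusted p = 0.0287), against -0.36 ± 0.15 (adjusted p = 0.18) in unloaded tibiae. Porcn, the enzyme that attaches the lipid, did not pass, with 0.11 ± 0.28 in loaded and 0.11 ± 0.30 in unloaded tibiae.

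The counts of called members depended on which libraries and terms were in the model. In loaded tibiae, a covariate for background reads left 0 members called and 31 of all genes (0.157%), with 10 of 44 members at an unadjusted p under 0.05 beside 12.2% of all genes. All 13 log2 fold changes of the members that fell were still negative, from -1.32 to -0.11. Since background did not overlap between the loaded groups, background and DEX cannot be told apart there. In unloaded tibiae the same covariate left 6 of 41 members called, all lower, with Tcf7 and Lgr4 lost, while the share of all genes called rose to 13.5% (5.85% lower and 7.61% higher). Leaving out DEX_Ctrl replicate 3 left 0 of the 8 called in unloaded tibiae, with log2 fold changes from -1.25 to -0.61, and 0.633% of all genes. Without DEX_Ctrl replicate 5 and Vehicle_Ctrl replicates 2, 4 and 5, 4, 5, 5 and 3 members were called beside 5.24%, 5.41%, 4.26% and 2.72% of all genes. Over the 9 left-out libraries, Dkk3 stayed called in 8, Wnt5b, Dkk1 and Nkd2 in 7, Lgr4 in 5, Wif1 in 4, and Lgr6 and Tcf7 in 2. In loaded tibiae, calls were lost for Lrp6 without DEX_Load replicate 1, Vehicle_Load replicate 1 or the unnumbered Vehicle_Load library, for Wls without DEX_Load replicate 3, Vehicle_Load replicate 1 or that library, and for Nkd2 without DEX_Load replicate 3 or that library. Wnt11 stayed called in 4 of 10, and apart from Wnt10b the other 10 called members stayed called in all 10. The count in loaded tibiae was 10 without the unnumbered Vehicle_Load library, beside 12.7% of all genes. It was 24 with all 4 groups in the same model (17 lower and 7 higher), beside 35.7% of all genes (13.5% lower and 22.2% higher), and 9 when every library had to have at least 10 counts, beside 14.3%. Had DEX_Load replicate 4 been the library left out, 13 members would be called in loaded tibiae (12 lower and 1 higher) beside 15.2% of all genes, and with no library left out 10 in unloaded tibiae, all lower, also beside 15.2%.

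In the 250 bases before RefSeq transcription starts, which were searched to show where a TCF/LEF motif lies relative to members that moved together, 32 of the 48 members had an entry. The motif was taken as CTTTGAT or CTTTGTT on either strand, and 8.06% of 32851 windows held it. By window, 4 of the 39 windows of members held it. Some genes have several windows, so that a count of genes is not on the scale of the share of windows. Of the 11 members that fell in loaded tibiae and had an entry, 2 held it in a window, Wnt5b and Dkk1. It was also in a window of Wnt11, whose values above are a description, and of Fzd7, which did not pass in either limb. The 4 stretches of 30 bases around the match follow, in 5′ to 3′ direction on the strand of the gene and with the match in capitals. They lie 71 bases before the innermost of 3 listed starts in Wnt5b (chr6:119449439-119449468, minus strand), 98 bases before the start in Dkk1 (chr19:30549576-30549605, minus strand), 51 bases before the first of 2 listed starts in Wnt11 (chr7:98835050-98835079, plus strand) and 130 bases before the start in Fzd7 (chr1:59482006-59482035, plus strand), counted from the first base of the match, in GRCm38.p6. The other starts of Wnt5b, among them the outermost one of the gene, and of Wnt11 had no match in their windows. RefSeq and GENCODE place the start of Dkk1 differently, so that the stretch shown lies inside the span given above for that gene, and the RefSeq start of Fzd7 lies before that of GENCODE.
Wnt5b: agtaagtctctCTTTGATctgctccctgtc
Dkk1: tcccatcccggCTTTGTTgtcttccctgag
Wnt11: gacgtgggcggATCAAAGcgacggtccgcg
Fzd7: tccacagagaaAACAAAGcgcgctattgga
Wnt11 and Fzd7 hold the motif on the other strand. The palindrome of the glucocorticoid receptor, AGAACA and TGTTCT spaced by 3 bases, which shares the letters TGTT with CTTTGTT, was in 3 of all windows and in none of the 39 windows of members. A match is a stretch of letters, and no binding was measured.

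Loading, which was compared within each treatment to ask whether DEX changes the response of bone to load, gave no member that passed. In vehicle-treated mice 0 of 40 members tested were called by edgeR, beside a background of 0% of 17982 genes, with 8 members at an unadjusted p under 0.05 (9.86% of all genes) and 0 by DESeq2. In DEX-treated mice 0 of 48 were called, beside 0% of 22541 genes, with 4 at an unadjusted p under 0.05 (4.25% of all genes) and 0 by DESeq2. With a replicate block that takes same-numbered limbs as pairs, 0 of 47 were called and 11 had an unadjusted p under 0.05 (8% of all genes). In the same libraries without the block, 2 of 47 did (2.45% of all genes). For the interaction, the difference between the loading responses, 0 of 48 were called beside 0% of 23653 genes, with 5 at an unadjusted p under 0.05 (12.1% of all genes) and 0 by DESeq2. DESeq2 called 141 of all genes for loading in vehicle and 51 for the interaction, with no member among them.

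The member of lowest p for loading in vehicle was Rspo2, an R-spondin. It measured 4.11, 4.35, 3.87, 3.22 and 3.08 CPM in Vehicle_Ctrl and 16.5, 5.67, 5.26, 5.69 and 8.88 CPM in Vehicle_Load, so that every loaded library was above every unloaded library, the only member of 40 for which this held in this comparison, beside 0.701% of all genes whose loaded libraries were all higher and 0.628% whose loaded libraries were all lower. The log2 fold change was 1.14 ± 0.32 (adjusted p = 0.317). Under DEX it measured 3.38, 3.15, 3.21 and 1.31 CPM without and 4.70, 4.70, 3.85, 7.40 and 2.60 CPM with loading, which overlapped, for 0.71 ± 0.36 (adjusted p = 0.733). Within the 4 pairs of same-numbered limbs it was higher with loading in 4 of 4, and with the replicate block the log2 fold change was 0.55 (adjusted p = 0.613). The summed periosteum and tendon markers stood at 1163 to 3252 CPM in Vehicle_Ctrl and 1707 to 3911 in Vehicle_Load. Chondrocyte markers stood at 411 to 1186 and 737 to 2319 CPM, and skeletal muscle markers at 7883 to 34803 and 3751 to 18343 CPM. In each of these 3 lists 0 markers were called, and their part in the difference of Rspo2 was not tested.

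Nkd2 and Wnt16 followed. Nkd2 had a log2 fold change of -0.45 ± 0.13 (adjusted p = 0.345) with loading in vehicle and -0.40 ± 0.28 (adjusted p = 0.733) with loading in DEX. Wnt16 measured 11.4, 9.65, 9.43, 14.3 and 12.2 CPM in Vehicle_Ctrl and 7.84, 7.72, 10.6, 4.53 and 7.68 CPM in Vehicle_Load, -0.60 ± 0.20 on the log2 scale (adjusted p = 0.399), and 6.42 to 11.8 CPM in DEX_Ctrl against 4.01 to 14.9 in DEX_Load, -0.03 ± 0.34 (adjusted p = 0.971). The groups overlapped for both genes in both treatments. Axin2 had -0.24 ± 0.14 in vehicle and 0.18 ± 0.20 in DEX, Wnt1 -0.58 ± 0.25 and -0.03 ± 0.44, and none of these passed. The inhibitor Dkk1 had -0.28 ± 0.19 with loading in vehicle and -0.41 ± 0.22 in DEX, and Wif1 -0.41 ± 0.16 and -0.51 ± 0.25. Under DEX both were lower in the loaded limb in 4 of 4 pairs, and with the replicate block they had -0.37 each (adjusted p = 0.613 for both).

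With loading in DEX, in the fit without the pairs, the lowest p were those of Wnt10a, Wnt7a and Lgr5, with log2 fold changes of 1.40 ± 0.53, 1.73 ± 0.66 and 0.96 ± 0.39 and an adjusted p of 0.733 for each. Wnt7a (0.562 to 1.21 CPM in DEX_Ctrl, 0.686 to 7.40 in DEX_Load) and Wnt10a (0.676 to 1.69 and 1.28 to 5.67 CPM) had a median under 10 counts in DEX_Ctrl and entered this test through DEX_Load, where they were higher, so that their values are a description. Lgr5, a receptor of R-spondins known from stem cells, measured 6.39, 5.97, 4.45 and 2.90 CPM in DEX_Ctrl and 10.1, 6.17, 5.77, 22.2 and 5.85 CPM in DEX_Load. The highest DEX_Load value of each of the 3 genes was that of replicate 4, the library with the most background, and without it the log2 fold changes were 0.97, 0.99 and 0.50.

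The replicate block takes same-numbered limbs as pairs and holds neither library numbered 4. With it, the lowest p for loading in DEX were those of Wif1, Lrp4 and Nkd2. Their log2 fold changes were -0.37, -0.30 and -0.53, with an adjusted p of 0.613 for each. In the order of replicates 1, 2, 3 and 5, Lrp4 measured 217, 296, 183 and 157 CPM without and 160, 244, 169 and 122 CPM with loading, and Nkd2 18.1, 16.7, 10.5 and 9.65 CPM without and 14.1, 11.6, 8.23 and 4.98 CPM with loading. All 3 genes were lower in the loaded limb of every pair. This held for 9 of 48 members, and 6 were higher in every pair, beside 9.64% and 8.37% of all genes.

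For the interaction the lowest p were those of Wnt9b, Wnt11 and Wnt10a, with 2.24 ± 0.73, 1.77 ± 0.67 and 1.81 ± 0.77 on the log2 scale and an adjusted p of at least 0.359. All 3 had a median under 10 counts in Vehicle_Load. Wnt9b measured 1.99, 2.33, 1.05, 1.67 and 1.21 CPM in Vehicle_Ctrl, 0.456, 0.293, 1.13, 1.16 and 0.345 in Vehicle_Load, 6.03, 1.69, 2.72 and 1.31 in DEX_Ctrl and 6.31, 2.74, 2.89, 12.3 and 3.79 in DEX_Load. Its median, like that of the background reads, was lower in Vehicle_Load than in Vehicle_Ctrl and higher in DEX_Load than in DEX_Ctrl, with overlapping groups, and with background as a covariate its interaction was 0.99 ± 0.38 (adjusted p = 0.863). For Dkk3, loading gave 0.55 ± 0.28 in vehicle and -0.17 ± 0.28 in DEX, neither of which passed, and the interaction was -0.73 ± 0.44 (adjusted p = 0.441).

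**Figure D5:**
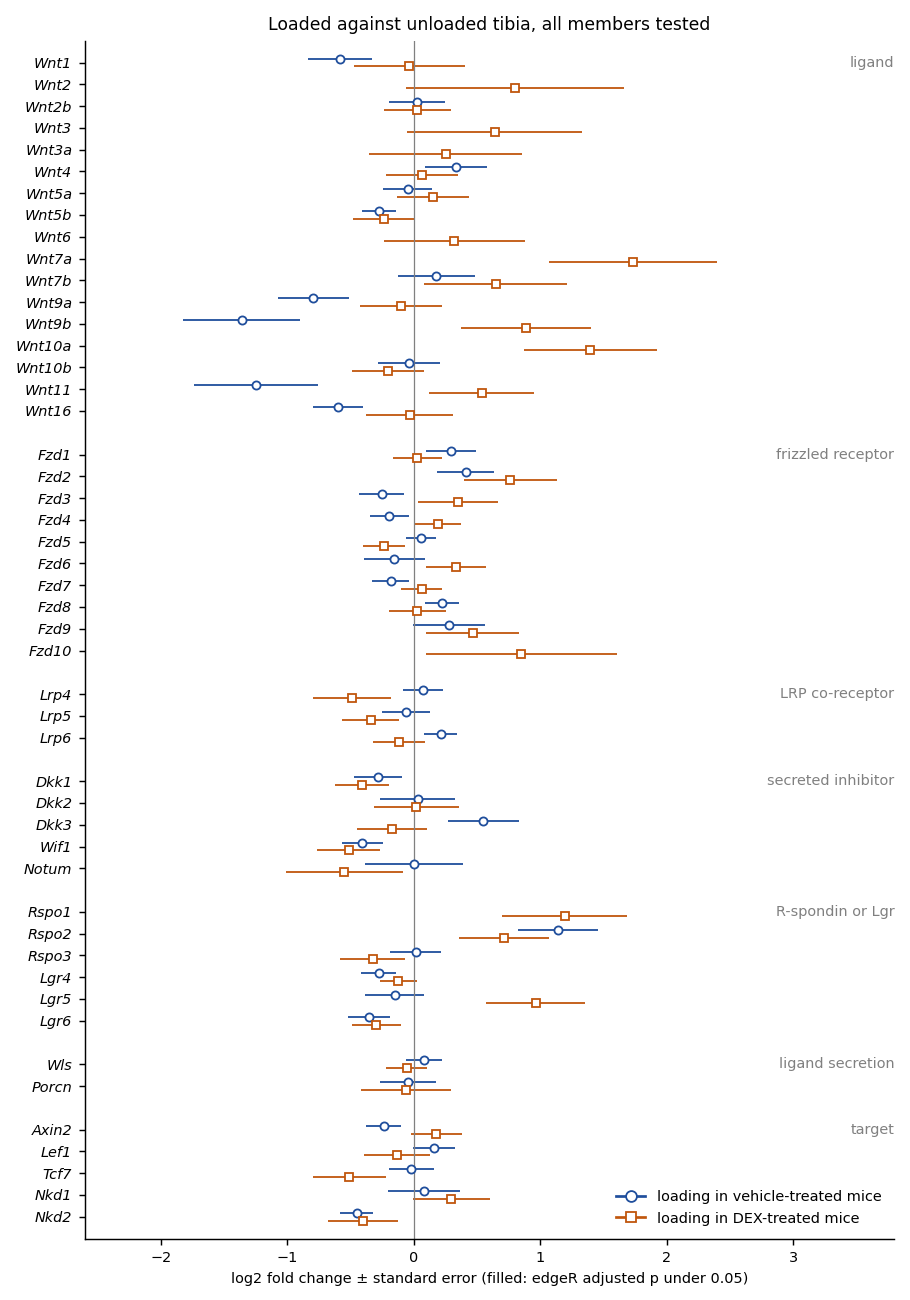
Log2 fold change ± SE of the loaded against the unloaded tibia for every member tested, in vehicle-treated mice (circles) and DEX-treated mice (squares), ordered by role. All symbols are open, since no member had an edgeR adjusted p under 0.05, and the widest bars belong to low ligands such as Wnt7a (1.73 ± 0.66 in DEX).

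The other genes of the pathway were read from a list of 67, of which 61 were tested for DEX in loaded tibiae. There 14 fell and 6 rose, beside the 8.35% lower and 12.9% higher of all genes. In unloaded tibiae 6 fell and 1 rose of 61, beside 3.99% and 2.86%. Ctnnb1, which encodes β-catenin, fell by 0.80 ± 0.20 on the log2 scale in loaded tibiae (adjusted p = 0.0183), and its mean was 369.9 CPM in Vehicle_Load and 207 CPM in DEX_Load. The pathway targets Ccn4 (-1.25 ± 0.23) and Ccnd1 (-1.07 ± 0.19) fell in loaded tibiae, and Ccn4 also in unloaded tibiae (-1.04 ± 0.21). Among receptors and partners of the branches outside β-catenin, Ptk7 fell by 1.09 in loaded and by 0.71 in unloaded tibiae and Vangl1 by 0.73 and 0.54, Ryk fell by 0.80 in loaded tibiae, and Celsr3 rose in both (1.25 and 1.07).

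Sost, which encodes the osteocyte inhibitor sclerostin, had a log2 fold change of -0.65 ± 0.22 in loaded tibiae (adjusted p = 0.0499) and -0.48 ± 0.20 in unloaded tibiae (adjusted p = 0.158), with overlapping groups. Kremen1, a receptor that works with dickkopf proteins, fell by 0.72 in loaded tibiae, and Bambi, a pseudoreceptor also known as a target of the pathway, fell by 0.87 in loaded and by 0.85 in unloaded tibiae. The 6 that rose in loaded tibiae were Celsr3, Celsr2, Rnf43, Rspo4, Shisa3 and Lypd6, each with a Vehicle_Load mean of at most 6.80 CPM. With the background covariate 0 of these genes were called in loaded tibiae, and without DEX_Ctrl replicate 3 none were called in unloaded tibiae. None of them was called by edgeR for loading in either treatment (6 of 59 and 2 of 62 at an unadjusted p under 0.05, beside 9.86% and 4.25% of all genes), although DESeq2 called Ccn5 for loading in vehicle (1.73 ± 0.35 by edgeR, adjusted p = 0.179), and none of 62 passed for the interaction (7 at an unadjusted p under 0.05, beside 12.1% of all genes, and 0 by DESeq2).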

How the data were processed

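RNA of 20 mouse tibiae was sequenced after SMARTer Stranded Total RNA-Seq Pico v2 library preparation. The authors deposited 1 table of expected counts per gene, not scaled for depth, made with STAR 2.7.10a and RSEM 1.2.28 on GRCm38 per the submitters' processing notes; how strand was set is not given in the sources used here. Expected counts were rounded to whole numbers, since 10.6% to 14.0% of a library's values were not whole. Totals of 4641440 to 13032000 counts set the precision of low genes, and p-values measure the spread between these tibiae. Column numbers were matched to sample labels. The vehicle columns with a number that no label has were used as unnumbered replicates of their group. The study left out a DEX library numbered 4 without naming the limb. DEX_Ctrl replicate 4 was taken to be it, since its plots hold 4 unloaded and 5 loaded DEX values, and both other choices were run as alternatives.

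Tests were edgeR 4.0.16 quasi-likelihood F tests (R 4.3.3, limma 3.58.1) with TMM factors on the genes that filterByExpr kept for the groups in question, and adjusted p-values (Benjamini-Hochberg, all genes tested) under 0.05 were called. The SE is the absolute log2 fold change divided by the square root of F. CPM used TMM-scaled totals of all 20 libraries, and TPM used merged exon lengths of GENCODE M21, in which 54409 of 54446 identifiers matched. Promoter windows came from RefSeq on GRCm38.p6. The scripts were tested on simulated data.

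The members and lists were chosen with earlier results of these data known. The members described are those that passed in any comparison, the 3 of lowest p in each comparison and those named by role, 31 in all, some with the value of every library and the rest by range. Background reads are the CPM summed over 1965 Olfr, Vmn1r and Vmn2r genes. Alternatives were DESeq2 1.42.0, its size factors in edgeR, other count filters, a replicate block, a single model of the 4 groups, other choices of left-out library, background reads as a covariate, and each library left out in turn. The libraries of the block fit without the block, and the T cell markers, were added after seeing the data.

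The replicate number was checked as a pairing by correlating the deviations of same-numbered libraries from their group means over 5000 genes. For loading in DEX the 4 correlations were 0.602, 0.491, 0.171 and 0.379, all above 0.1, and by that rule the numbers were taken as pairs there. Replicate 3 correlated more with a library of another number (0.339), and replicate 5 about as much (0.367). For DEX in unloaded tibiae, which compares different mice, replicates 1 and 5 reached 0.175 and 0.166. The rule therefore does not establish that the numbers pair the limbs. For loading in vehicle the correlations were -0.118, 0.0042, -0.039 and 0.723.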

Additional observations from a re-analysis of the deposited data

Results flagged for a closer look

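In 124 groups of 4 or 5 libraries, 1 for each member described and group, a highest or lowest library was set against the rest by Dixon's test at the 95% level, and 13 stood apart. Chance alone flags about 1 in 20 groups. In DEX_Load, replicate 4 stood apart for Wnt11 (4.57 CPM against 1.63 to 2.35 CPM in the others) and Lgr5 (22.2 CPM against 5.77 to 10.1 CPM); it is also the library of lowest total count and highest background. Wnt10a stood apart in 3 groups, at 2.76 CPM in Vehicle_Ctrl replicate 2, 2.25 CPM in Vehicle_Load replicate 4 and 1.69 CPM in DEX_Ctrl replicate 1.

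Among the co-receptors, Lrp4 was 314 CPM in the unnumbered Vehicle_Ctrl library against 164 to 199 CPM in the others, and DEX_Ctrl replicate 2 was highest for Lrp5 (109 CPM) and Lrp6 (144 CPM). Fzd1 was 25.5 CPM in DEX_Ctrl replicate 1 and Fzd9 4.98 CPM in Vehicle_Ctrl replicate 2. Vehicle_Ctrl replicate 1 was highest for Lgr5 (7.03 CPM) and lowest for Nkd1 (2.78 CPM against 6.47 to 7.48 CPM). Rspo2 was lowest in DEX_Ctrl replicate 5, at 1.31 CPM against 3.15 to 3.38 CPM.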

How the results depend on the processing

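Of 991 recomputed log2 fold changes (all members described for DEX in loaded tibiae, and for the other comparisons those called, of lowest p, or Axin2, Wnt16 and Lrp5), 852 kept their direction and side of the threshold, 102 kept the direction and lost the threshold, 24 passed it newly and 13 changed sign, each for a gene that had not passed. For DEX in loaded tibiae, the background covariate changed the sign of Wnt7a (-0.91), Wnt7b (-0.68), Wnt10a (-0.42), Lgr5 (-0.38), Axin2 (-0.027), Wnt4 (0.84), Lrp4 (0.19) and Lrp5 (0.19). Leaving out DEX_Load replicate 1 did so for Wnt16 (-0.043, and up to 0.40 with another library left out), and Vehicle_Load replicate 1 for Fzd9 (0.012, and down to -0.36). Lrp5 in unloaded tibiae was 0.070 with the replicate block, 0.065 in its libraries without the block and 0.027 with the covariate. Of the 120 log2 fold changes of described members in the other 4 comparisons, 41 changed sign in at least 1 alternative, none of them called and none over 0.29 in size. For loading and the interaction, 0 members were called under any alternative run, and 1 other pathway gene was called for loading in vehicle by DESeq2 and with no filter.

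For DEX in loaded tibiae, 15 members (21.3% of all genes called) became 9 with at least 10 counts in every library (14.3%), 24 with all 4 groups in the same model (17 lower, 7 higher; 35.7%), 0 with the covariate (0.157%), and 10 to 19 with libraries left out in turn (12.7% to 28%). The 20 other pathway genes became 33, 0 and 12 to 24 under the last 3. The replicate block left 10 members and 11 other genes (11.7%), and its libraries without the block 7 and 8 (5.65%). For DEX in unloaded tibiae, 8 members (6.84%) became 0 to 8 with libraries left out (0.633% to 9.6%), 1 with the block (2.63%) and 2 in its libraries without it (2.86%). The 7 other genes became 12 by DESeq2 (13.8%), 14 with all 20 libraries (15.2%), 2 with the block, 0 in its libraries without it, and 0 to 8 with libraries left out. Both DEX comparisons set different mice against each other, and the numbers share only a name there. For loading in DEX, where the numbers were taken as pairs of limbs, the block left 0 members called. There 11 of 47 were at an unadjusted p under 0.05 (8% of all genes), against 2 of 47 (2.45%) in the same libraries without the block. The causes of these shifts were not tested, except that the block fits hold fewer libraries. Wnt2, Wnt3, Wnt3a and Wnt6 lie near the filter on low counts, with few counts in most libraries.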
